A study of Mus musculus with 6 samples.

Results

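The ovarian surface epithelium is the thin layer of cells that covers the ovary, and 10 genes that mark it were followed here in fetal mouse ovaries with and without Dmrt1. The 10 genes are Upk3b, Upk1b, Krt7, Krt8, Krt18, Krt19, Lrrn4, Msln, Wt1 and Gpm6a, out of 18193 genes that the array names singly. They were found by symbol in the platform annotation, which gave 17 probe sets that name 1 of them each. A probe set is the group of short probes that together read 1 transcript.

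The surface layer derives from the coelomic epithelium, the lining of the body cavity from which the gonad itself forms. It shares with mesothelium, the lining of other body cavities, a simple keratin skeleton and a set of surface proteins, among them uroplakins, mesothelin and GPM6A. Several of these genes are not private to it. Wt1 is also active in somatic cells inside the gonad, and simple keratins are also made in ducts next to the ovary.

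Ovaries of the Dmrt1 knockout were compared with wild-type ovaries, both taken from E15.5 embryos, with 3 arrays per genotype. DMRT1 is a DNA-binding protein with a DM domain, known for its roles in germ cells and testis. The series describes the removal as conditional, and the labels name no Cre driver, promoter, strain or litter for either group and do not say whether ovaries were pooled. Nothing in the labels says that replicates came from separate animals, and p-values then cover only how far these arrays scatter, possibly for technical reasons.

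Some facts of the arrays bear on all results. Dmrt1 was dim on all arrays, between log2 2.58 and 3.10 in knockout ovaries and between 3.08 and 3.70 in wild-type ovaries, and it is not known here whether its probe set falls in the removed sequence. Xist, the RNA that silences an X chromosome in female cells, averaged log2 1.81 on knockout replicate 1, while knockout replicate 2 had 9.85, knockout replicate 3 had 9.75 and wild type had 10.68 to 10.91. Y-linked genes had medians of log2 1.29 to 1.49 on the 6 arrays. The differences of the 10 genes, except Msln, which was too dim to test, are therefore also given without knockout replicate 1. Counts of calls in the gene lists are given so where leaving that array out changed them. Of 22040 probe sets tested, 321 rose and 1134 fell in knockout, so 22.1% of those called were higher. That share was 51.8% when each array was centred on its median and 29.3% with quantile normalization. Median centring moved the median difference of all genes from 0.019 to 0.156 log2 units. The array medians, at intensities of 13.15 to 14.74, lay under the intensity of 16 needed for testing, so that centring rests on dim probe sets.

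None of the surface epithelium genes tested was called as changed by the test used. Of the 10 genes, 9 were tested and 0 were called at a limma adjusted p under 0.05, where 3.55% of all 11897 genes tested were called, and 3 of the 9 had an unadjusted p under 0.05, where 17.4% of all genes did. The count was also 0 without knockout replicate 1. Lrrn4, Krt7 and Upk3b had the smallest p of the 9, with differences of 0.46, 0.37 and 0.25 log2 units, and their knockout arrays all lay above the wild-type arrays. Such a gap with knockout higher was found in 12.3% of all genes tested. Wt1, Krt8, Krt18 and Gpm6a differed by less than 0.10 log2 units through their brightest probe sets. Each gene was read through its brightest probe set, by the mean of the 6 arrays. Because whole ovaries were measured, fewer cells of a type and less RNA per cell cannot be told apart.

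**Figure D1:**
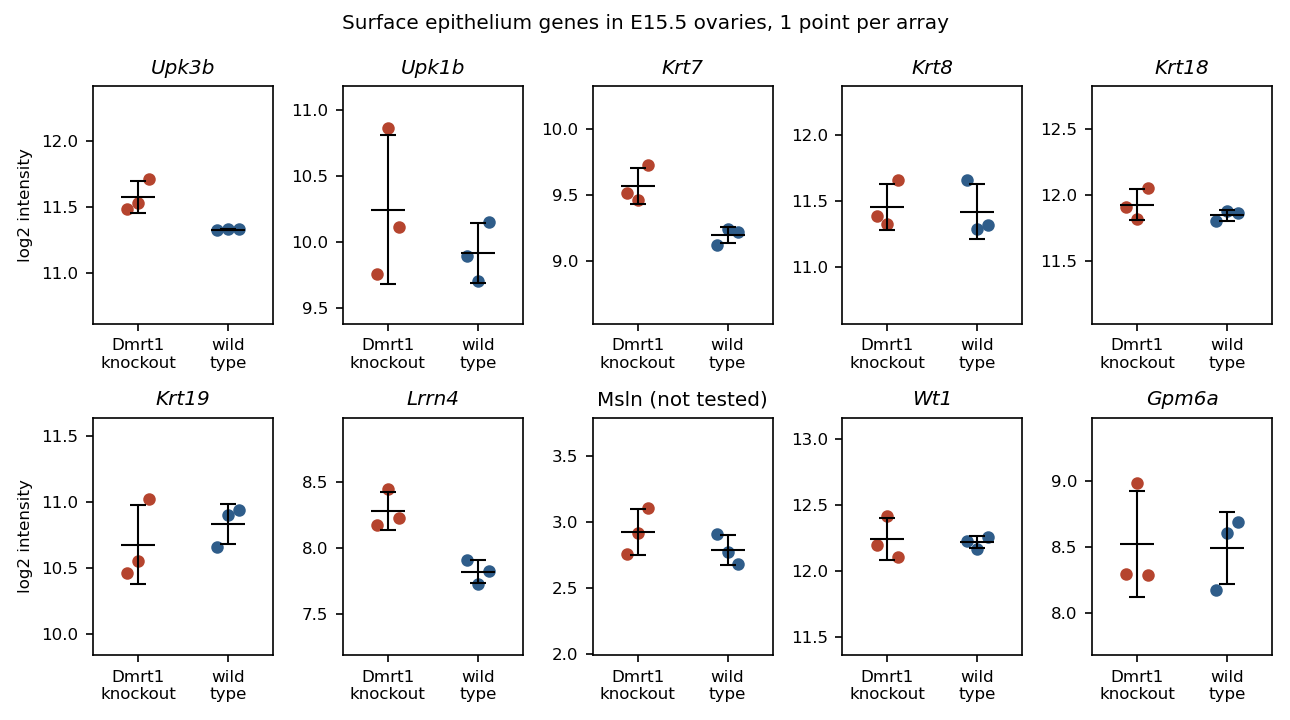
Log2 intensity of each of the 10 genes by array, with Dmrt1 knockout on the left and wild type on the right of each panel. Points are arrays (n = 3 per group), and the bar and whiskers are the mean and SD. Every panel spans the same log2 range around its own centre. The groups are apart for Upk3b, Krt7 and Lrrn4 and overlap for the other genes.

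The uroplakins are membrane proteins first known from the bladder lining, and Upk3b is widely used as a mesothelial marker in mice. Upk3b read log2 11.48, 11.53 and 11.71 on knockout replicates 1, 2 and 3, against 11.32, 11.33 and 11.33 on wild-type replicates 1, 2 and 3. All 3 knockout arrays were higher, and the wild-type arrays lay almost on top of each other, with an SD of 0.0067 that is lower than that of all but 0.235% of genes tested. The difference of 0.25 ± 0.09 log2 units (SE, n = 3 per group) did not pass (limma adjusted p = 0.161), with a 95% interval from 1.03-fold to 1.37-fold, and was 0.29 without knockout replicate 1 (limma adjusted p = 0.178). A second, dimmer Upk3b probe set differed by 0.29 ± 0.17, with overlapping groups and a limma adjusted p of 0.372.

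Upk1b, a tetraspanin that pairs with other uroplakins, had 4 tested probe sets. Its brightest read log2 9.76, 10.86 and 10.11 in knockout, against 9.89, 9.70 and 10.15 in wild type. Knockout replicate 2 stood far above all other arrays, while knockout replicate 1 lay within the wild-type range. All 4 probe sets were highest on knockout replicate 2 among the knockout arrays, and their differences were 0.10 to 0.47 log2 units with overlapping groups. For the brightest probe set the difference was 0.33 ± 0.24 (limma adjusted p = 0.497), and the interval ran from 0.86-fold to 1.83-fold. It was 0.57 without knockout replicate 1 and 0.022 without knockout replicate 2, so single arrays set its size. Its SD among knockout arrays, 0.56 log2 units, was above that of 96.4% of genes tested.

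Keratins form filaments as pairs of a type II and a type I chain. KRT7 and KRT8 are type II chains and KRT18 and KRT19 type I chains of simple epithelia, and KRT8 and KRT18 are a standard pair. Krt8 and Krt18 also lie next to each other as protein-coding genes on mouse chromosome 15, on opposite strands. RefSeq promoter sequences, from 250 bases before to 50 bases after an annotated start on build GRCm38.p6, were at hand for 6 of the 10 genes. The promoters of these 2 paired keratins are shown because the pair could be read side by side, and those of Krt7, Lrrn4 and Upk3b because their groups did not overlap. Capitals mark TATAAA matches on either strand, and a sequence with no capitals holds none.

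Krt8, chr15:102004293-102004592, minus strand: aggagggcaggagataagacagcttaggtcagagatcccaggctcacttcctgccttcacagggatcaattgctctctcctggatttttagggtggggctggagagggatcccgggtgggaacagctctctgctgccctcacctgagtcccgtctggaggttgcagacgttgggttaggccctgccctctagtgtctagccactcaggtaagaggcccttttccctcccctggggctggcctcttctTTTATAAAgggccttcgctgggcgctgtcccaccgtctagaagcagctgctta
Krt18, chr15:102027966-102028265, plus strand: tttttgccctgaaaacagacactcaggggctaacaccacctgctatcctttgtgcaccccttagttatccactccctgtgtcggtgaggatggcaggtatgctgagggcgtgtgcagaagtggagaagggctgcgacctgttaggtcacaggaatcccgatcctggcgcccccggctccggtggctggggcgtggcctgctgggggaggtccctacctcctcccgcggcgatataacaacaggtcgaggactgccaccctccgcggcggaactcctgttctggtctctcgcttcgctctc
Krt7, chr15:101412153-101412452, plus strand: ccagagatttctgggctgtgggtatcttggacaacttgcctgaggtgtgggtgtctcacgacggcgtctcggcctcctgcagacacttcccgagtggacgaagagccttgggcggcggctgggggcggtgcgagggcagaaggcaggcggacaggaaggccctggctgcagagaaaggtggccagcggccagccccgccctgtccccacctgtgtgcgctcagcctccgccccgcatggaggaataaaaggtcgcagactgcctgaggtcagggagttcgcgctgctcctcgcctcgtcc
Lrrn4, chr2:132880813-132881112, minus strand: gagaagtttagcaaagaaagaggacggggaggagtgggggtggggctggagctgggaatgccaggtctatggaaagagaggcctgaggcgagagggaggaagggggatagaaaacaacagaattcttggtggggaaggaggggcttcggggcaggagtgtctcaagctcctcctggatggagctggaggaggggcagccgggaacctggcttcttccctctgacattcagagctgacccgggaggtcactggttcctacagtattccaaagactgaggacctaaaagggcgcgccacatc
Upk3b, chr5:136038246-136038545, plus strand: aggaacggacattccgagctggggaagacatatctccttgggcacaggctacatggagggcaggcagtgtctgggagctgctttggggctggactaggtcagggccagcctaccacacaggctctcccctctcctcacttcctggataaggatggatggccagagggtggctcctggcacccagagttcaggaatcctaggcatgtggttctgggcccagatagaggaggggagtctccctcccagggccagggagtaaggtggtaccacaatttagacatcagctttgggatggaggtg

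The Krt8 promoter held 2 overlapping TATAAA matches, 1 on each strand, beside its annotated start, and the Krt18, Krt7, Lrrn4 and Upk3b promoters held none. TATAAA occurs in 13.6% of the 32544 distinct RefSeq promoters of the same length. Cores of the DM domain motif (ACATTGT, in 2.95% of promoters) and of the WT1 motif (GCGTGGG, in 5.08%), both searched on both strands, were in 0 of the 7 promoter entries of the 6 genes. These searches describe letters in this window and say nothing on whether a factor binds.

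Of the 4 keratins among the 10 genes, Krt7 had the largest difference through its brightest probe set. It read log2 9.51, 9.46 and 9.73 in knockout, against 9.12, 9.24 and 9.22 in wild type. The lowest knockout array exceeded the highest wild-type array. The difference was 0.37 ± 0.13 log2 units (SE of 3 against 3 arrays), at a limma adjusted p of 0.128 and with an interval from 1.06-fold to 1.58-fold. Without knockout replicate 1 it was 0.40 (limma adjusted p = 0.19).

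For Krt8, 3 probe sets gave unequal answers. The brightest, of a kind whose probes can also match other transcripts (x_at), read log2 11.39, 11.33 and 11.66 in knockout, against 11.66, 11.29 and 11.32 in wild type, so 1 array of each genotype was high. It differed by 0.04 ± 0.13 log2 units (limma adjusted p = 0.911), or by 0.07 without knockout replicate 1. The a_at probe set, of a kind that can match several transcripts of 1 gene, read 10.91, 11.13 and 11.22 in knockout, against 10.9, 10.72 and 10.85 in wild type. Its groups were narrowly apart, and its difference of 0.27 ± 0.11 did not pass (limma adjusted p = 0.21). The third, another x_at probe set, differed by 0.14 ± 0.13 with overlapping groups.

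Krt18, the partner of Krt8, read log2 11.91, 11.82 and 12.05 in knockout, against 11.8, 11.88 and 11.86 in wild type. The groups overlapped, and the difference of 0.08 ± 0.09 (limma adjusted p = 0.665) had a narrow interval, from 0.92-fold to 1.21-fold, and was 0.09 without knockout replicate 1. Krt19, which can pair with KRT7 or KRT8, was the only one of the 9 tested genes with a negative difference. It read 10.46, 10.55 and 11.02 in knockout, against 10.66, 10.90 and 10.94 in wild type. Knockout replicates 1 and 2 were the lowest arrays and knockout replicate 3 the highest of the 6. The difference was -0.16 ± 0.15 (limma adjusted p = 0.625), from 0.71-fold to 1.14-fold, and -0.05 without knockout replicate 1.

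Lrrn4, a leucine-rich repeat membrane protein that marks mesothelium in mice, had the largest difference of the 9 genes through their brightest probe sets. It read log2 8.17, 8.44 and 8.22 in knockout, against 7.91, 7.73 and 7.82 in wild type. All knockout arrays were higher, by 0.46 ± 0.15 log2 units on average (SE, n = 3 per group), or 1.38-fold with an interval from 1.09-fold to 1.73-fold. It did not pass (limma adjusted p = 0.109). Without knockout replicate 1 the difference was 0.51 (limma adjusted p = 0.141).

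Lrrn4, Krt7 and Upk3b passed in 1 of the alternatives tried, the centring of arrays on their medians, with differences of 0.60, 0.51 and 0.38 and limma adjusted p of 0.043, 0.0428 and 0.0398. The median of all genes tested was 0.156 under that centring, so these values hold a shift common to all genes. Relative to it, the median of the 9 genes was 0.06 log2 units, and it was also 0.06 relative to all genes on the values as deposited.

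**Figure D2:**
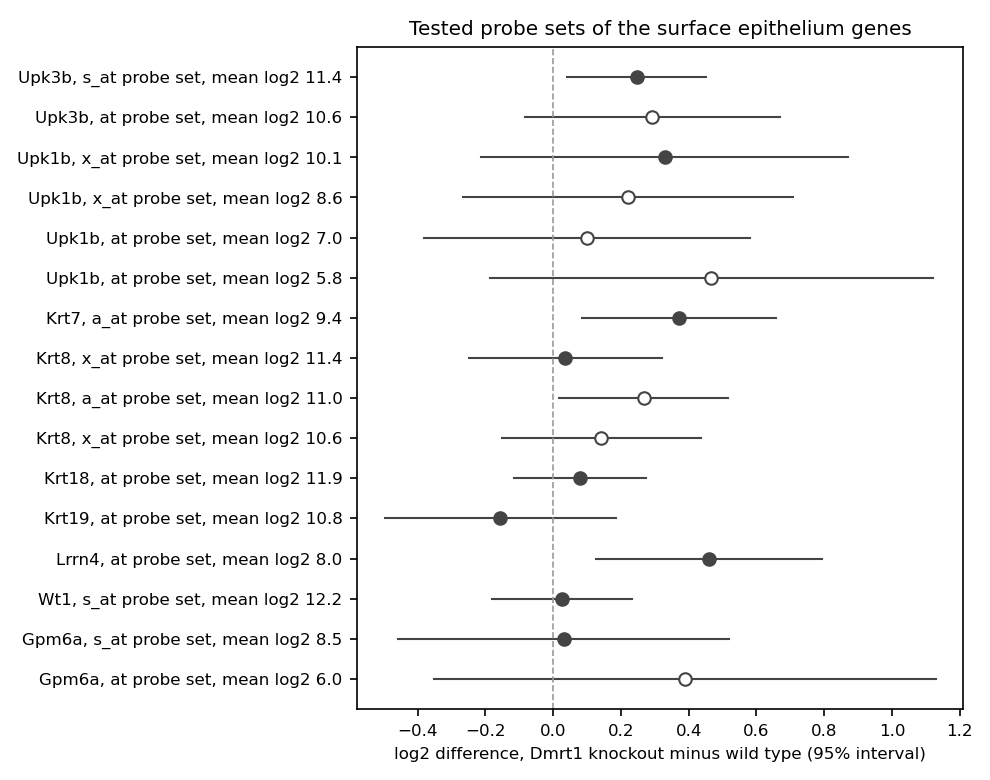
Log2 difference, Dmrt1 knockout minus wild type, of the 16 tested probe sets of the surface epithelium genes, with 95% intervals. Filled points are the brightest probe set of each gene and open points the others, and the labels give the kind of probe set and its mean log2 intensity. The intervals of 4 probe sets, of Upk3b, Krt7, Krt8 and Lrrn4, lie above 0 before any adjustment, as do those of 7.55% of all probe sets tested.

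Msln encodes mesothelin, a surface protein of mesothelium and, in humans, of many ovarian tumours. It was the only one of the 10 genes under the level for testing, which was log2 4 (an intensity of 16) on at least 3 arrays. It read log2 2.76, 2.92 and 3.11 in knockout, against 2.91, 2.77 and 2.68 in wild type. Every array was dim, so the difference of 0.14 has little meaning and no fold is given. Muc16, which encodes the binding partner of mesothelin in humans, was tested and averaged log2 8.98 ± 0.46 in knockout and 9.16 ± 0.06 in wild type (SD, n = 3 each), a difference of -0.18 ± 0.21 (SE, limma adjusted p = 0.671).

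Gpm6a encodes a membrane glycoprotein best known from neurons. Its brighter probe set read log2 8.29, 8.98 and 8.29 in knockout, against 8.18, 8.61 and 8.69 in wild type. Knockout replicate 2 was the highest array, and the other 2 knockout arrays lay among the wild-type values. The difference was 0.03 ± 0.22 (limma adjusted p = 0.957), from 0.73-fold to 1.43-fold, with 0.15 without knockout replicate 1 and -0.20 without knockout replicate 2. The dimmer probe set differed by 0.39 ± 0.33 and was also highest on knockout replicate 2.

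Wt1, a zinc finger transcription factor without which the gonad does not form, is the regulator among the 10 genes. It read log2 12.2, 12.42 and 12.11 in knockout, against 12.23, 12.17 and 12.26 in wild type. The wild-type arrays lay inside the knockout range. The difference of 0.03 ± 0.09 (limma adjusted p = 0.914) had an interval from 0.88-fold to 1.18-fold, and was 0.05 without knockout replicate 1. Of 16 tested genes from a list of WT1 targets 0 were called, where 3.55% of all genes were. Of the 16, 6 had an unadjusted p under 0.05, where 17.4% of all genes did. In that list 6 had a positive and 10 a negative difference, and the median was -0.07. The smallest p in that list belonged to Egr1, an early response factor (difference -0.52 ± 0.14, limma adjusted p = 0.0552), Nr5a1, a regulator of steroid genes (0.50 ± 0.14, 0.0694), and Bmp4, a growth factor (-0.47 ± 0.15, 0.0952). Without knockout replicate 1, 1 gene of the list was called, the growth factor receptor gene Igf1r, which fell by 1.07 (limma adjusted p = 0.0177), against -0.77 (0.12) with all arrays.

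The 9 tested genes did not move as a block from array to array. Keratins and Upk3b were highest on knockout replicate 3 among the knockout arrays, which makes 5 genes, and Upk1b, Lrrn4, Wt1 and Gpm6a were highest on knockout replicate 2. Of all genes tested, 36.5% were highest on knockout replicate 3 and 35.9% on knockout replicate 2. Knockout replicate 1, the array with little Xist signal, was the highest knockout array for 0 of the 9, where it was so for 27.6% of all genes tested. In other lists that count ran from 0 of 11 macrophage and leukocyte genes to 7 of 10 germ cell genes. Over the 9 genes, median deviations from each gene's own mean were -0.03, 0.08 and 0.17 log2 units on knockout replicates 1, 2 and 3, against -0.13, -0.12 and -0.03 on wild-type replicates 1, 2 and 3. The summed intensity of all 10 genes, the untested Msln included, ran from 17717 to 19881 in knockout ovaries and from 17400 to 18079 in wild-type ovaries. These sums overlapped.

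**Figure D3:**
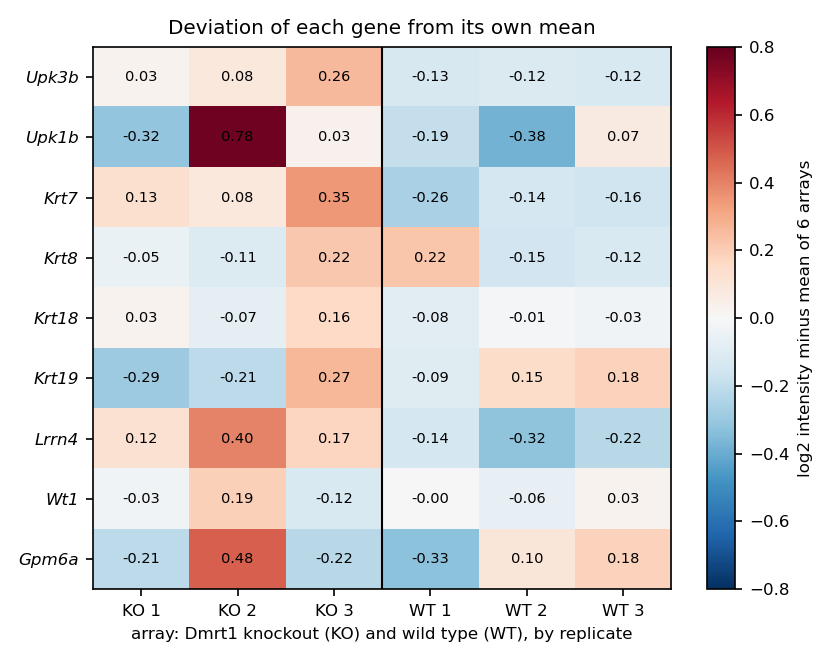
Deviation of each of the 9 tested genes from its own mean over the 6 arrays, in log2 units, with the 3 knockout arrays (KO) left of the 3 wild-type arrays (WT). Red is above and blue below the mean. Knockout replicate 2 is highest for Upk1b at 0.78 and Gpm6a at 0.48, and knockout replicate 3 is above the mean for Upk3b and all 4 keratins.

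Likeness between profiles was measured as the root mean square distance over the 6 arrays, each gene centred on its own mean, in log2 units. It describes these arrays only, since all genes share them. The surface epithelium gene nearest to Krt7 was Upk3b, at 0.077, and 60 of the other 11896 genes tested lay nearer to Krt7. For Krt8 the nearest of the group was its partner Krt18, at 0.148, with 1145 genes nearer. Among genes outside the group, the nearest to Lrrn4 were Ssbp4 (0.039), Mcm2 (0.040) and Phc2 (0.044). Those nearest to Krt7 were Hes6 (0.037), Zfand2b (0.040) and Lrrc56 (0.041). Nearest to Upk3b were Rhot2 (0.020), Foxm1 (0.024) and Rspo1 (0.031). Rspo1, a WNT agonist of the fetal ovary, also stands in the lists of coelomic epithelium and of pregranulosa genes. None of these 9 genes passed the test, with limma adjusted p from 0.053 for Mcm2 to 0.41 for Foxm1.

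Other genes of the coelomic epithelium and mesothelium gave 2 calls. Of 17 tested genes 2 rose, 0 fell and 15 did not pass, where 1.28% of all genes rose, and the median was 0.14 log2 units against 0.02 for all genes. Lhx9, a LIM homeobox factor that the early gonad needs, read log2 10.72, 10.84 and 10.86 in knockout, against 10.25, 10.22 and 10.29 in wild type. It rose by 0.55 ± 0.10 (SE of 3 against 3 arrays), with a limma adjusted p of 0.00916. Its other tested probe sets differed by 0.64, 0.51 and -0.05 and did not pass. Lgals2, which encodes a galectin, read log2 6.85, 6.83 and 7.74 in knockout, against 5.85, 6.01 and 6.27 in wild type, and rose by 1.09 ± 0.26 (limma adjusted p = 0.0309).

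Both calls held without knockout replicate 1. Both ended without wild-type replicate 1, 2 or 3, where the limma adjusted p was 0.0581, 0.0747 and 0.0509 for Lhx9 and 0.143, 0.12 and 0.0648 for Lgals2. Cdh1, the epithelial cadherin, was higher on every knockout array, as were 12.3% of all genes tested, and did not pass (0.31 ± 0.14, limma adjusted p = 0.255). Lhx2, Tbx18 and Cdh3 of this list were under the level for testing. The list's summed intensity ran from 32669 to 36612 in knockout ovaries and from 31036 to 31943 in wild-type ovaries, without overlap.

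Genes of epithelial junctions and polarity gave 0 calls among 19 tested, where 3.55% of all genes were called. Differences were positive for 11 and negative for 8 of them, with a median of 0.08 log2 units. Ezr, which links membrane to actin (0.51 ± 0.16, limma adjusted p = 0.0996), and Pkp2, a desmosome protein (0.36 ± 0.12, 0.13), were higher on every knockout array. So were 12.3% of all genes tested. Ppl, which encodes periplakin, was lower on every knockout array (-0.60 ± 0.21, 0.14) at dim levels. The share of all genes lower on every knockout array was not counted. In this list 3 of the 19 genes had an unadjusted p under 0.05, where 17.4% of all genes did.

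Among other intermediate filament genes, 1 of 13 tested fell and 0 rose, where 2.27% of all genes fell. Nes, which encodes the filament protein nestin, known from progenitor cells, read log2 9.17, 9.25 and 9.29 in knockout, against 9.76, 9.74 and 10.05 in wild type, and fell by 0.61 ± 0.13 (SE of 3 against 3 arrays), with a limma adjusted p of 0.0207. That call ended without knockout replicate 1 (0.0658), without wild-type replicate 1 (0.0728), 2 (0.0723) or 3 (0.143), with the mean of its probe sets (0.179) and with median centring (0.0624). Of the keratins in this list, Krt4, Krt5, Krt6a, Krt13, Krt15 and Krt23 were under the level on all 6 arrays. Krt1, Krt10, Krt14 and Krt17, known from skin, were tested and did not pass, with differences of 0.42, 0.17, 0.37 and 0.21 and limma adjusted p of 0.252, 0.585, 0.337 and 0.65. The first 3 of them were higher on every knockout array, as were 12.3% of all genes tested, and Krt1 was dim, between log2 3.97 and 4.8. Of the keratins under the level, Krt4, Krt6a, Krt15 and Krt23 were also higher on every knockout array, and Krt5 and Krt13 overlapped. Differences at such levels have little meaning. Krt20, a keratin of gut and bladder lining, differed by 0.76 ± 0.29 with overlapping groups (0.168), and Lmna, which encodes nuclear lamins, by -0.29 ± 0.10 (0.122).

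Relatives of the 10 genes gave 0 calls among 7 tested, where 3.55% of all genes were called. Of the 7, 1 had an unadjusted p under 0.05, against 17.4% of all genes. Upk3a and the tetraspanin Tspan1 lay under the level on all 6 arrays, and Upk1a, Upk2 and Lrrn2 reached it on too few arrays to be tested. Gpm6b, the close relative of Gpm6a, was lower on every knockout array (-0.31 ± 0.11, limma adjusted p = 0.148), a pattern not counted over all genes. Gpm6a itself differed by 0.03. Lrrn3 differed by -0.21 ± 0.22 (0.659) and Cd151, another tetraspanin, by 0.31 ± 0.17 (0.347).

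Markers of the other cells in the sample were read beside these results. In the pregranulosa list, 1 of 16 tested genes rose, where 1.28% of all genes did. That gene was Lhx9, which the coelomic list also holds. The pregranulosa median was 0.24 log2 units, or 0.11 without knockout replicate 1. Summed intensity of the list ran from 20085 to 20370 in knockout ovaries and from 17732 to 18108 in wild-type ovaries. Only Irx1 was under the level on all arrays. Irx5, a homeobox factor of these cells, differed by 0.72 ± 0.20 (limma adjusted p = 0.0601). It was dim, between log2 4.07 and 5.14, and its difference was 0.43 with 16 added to all intensities. For Nr0b1, an orphan nuclear receptor, the difference was 0.58 ± 0.22 (0.162). Of the 16 tested genes 13 had a positive and 3 a negative difference. Runx1 was lower on every knockout array (-0.40 ± 0.16, limma adjusted p = 0.19), a pattern not counted over all genes. Foxl2 (-0.26 ± 0.27, 0.64) and Wnt4 (-0.08 ± 0.22, 0.87) were the other negative genes. Mesonephros and duct markers gave 0 calls among 9 tested, where 3.55% of all genes were called. Of the 9, 1 had an unadjusted p under 0.05, against 17.4% of all genes. The median of this list was 0.27, with sums between 914 and 1108 in knockout ovaries and between 756 and 955 in wild-type ovaries. Emx1 and Tfap2b were under the level.

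Germ cell markers gave 0 calls among 10 tested, where 3.55% of all genes were called. Of the 10, 4 had an unadjusted p under 0.05, 3 higher and 1 lower in knockout, against 17.4% of all genes. The germ cell median was 0.10, with sums between 17267 and 22639 in knockout ovaries and between 15851 and 19719 in wild-type ovaries. Dnd1 and Tdrd1 were under the level. Stroma markers gave 0 calls among 13 tested, against the same 3.55%. Of the 13, 5 had an unadjusted p under 0.05, all lower in knockout, against the same 17.4%. The stroma median was -0.25, with sums between 38439 and 41317 in knockout ovaries and between 43449 and 48524 in wild-type ovaries. In endothelium 2 of 8 fell, the receptors Flt1 and Tek, where 2.27% of all genes fell, with a median of -0.20, sums between 2520 and 3253 in knockout ovaries and between 3337 and 3771 in wild-type ovaries, and Pecam1 and Cdh5 under the level. The call of Flt1 (limma adjusted p = 0.0184) was lost on leaving out wild-type replicate 1 (0.0626) or 3 (0.112). Tek (0.0452) lost its call without any one of 5 arrays, all but knockout replicate 3, with 0.116 without knockout replicate 1. That call also ended with median centring (0.109), quantile normalization (0.054), eBayes without trend (0.0616), the stricter filter (0.0539) and averaged probe sets (0.0525).

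Among macrophage and leukocyte genes 2 of 11 fell, Ptprc and Mrc1, against the same 2.27%, with a median of -0.33, or -0.08 without knockout replicate 1, and sums between 7516 and 11467 in knockout ovaries and between 10291 and 12700 in wild-type ovaries. Both calls (limma adjusted p = 0.0357 and 0.0358) ended without knockout replicate 1 (0.0795 and 0.0881), without any wild-type array (0.0841 to 0.158 for Ptprc and 0.11 to 0.165 for Mrc1) and with median centring (0.0546 and 0.0752). Ptprc also lost its call without knockout replicate 2 (0.0544), and Mrc1 without knockout replicate 3 (0.0727). Ptprc was dim, between log2 3.78 and 5.64, and its difference of -1.06 was -0.67 with 16 added to all intensities. In the erythroid list 1 of 4 fell, Slc4a1, where 2.27% of all genes fell. The erythroid median was -0.33, with sums between 7130 and 8573 in knockout ovaries and between 8264 and 8973 in wild-type ovaries. Those sums came mostly from 1 gene, the globin Hbb-y, at log2 12.69 to 13.05 and with a difference of -0.02. Hba-a1 and Epb42 were under the level. The call of Slc4a1 (0.0275) ended without knockout replicate 1 (0.0871) or 2 (0.0704) and without wild-type replicate 1 (0.0952) or 3 (0.0862). Without knockout replicate 1 the counts that fell were thus 1 in endothelium, 0 among macrophage genes and 0 in the erythroid list. The sums of the coelomic, pregranulosa, stroma and endothelium lists did not overlap between groups. The coelomic and pregranulosa lists share Lhx9 and Rspo1, so their sums are not separate. The part of these cells in the differences of the 10 genes was not tested.

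**Figure D4:**
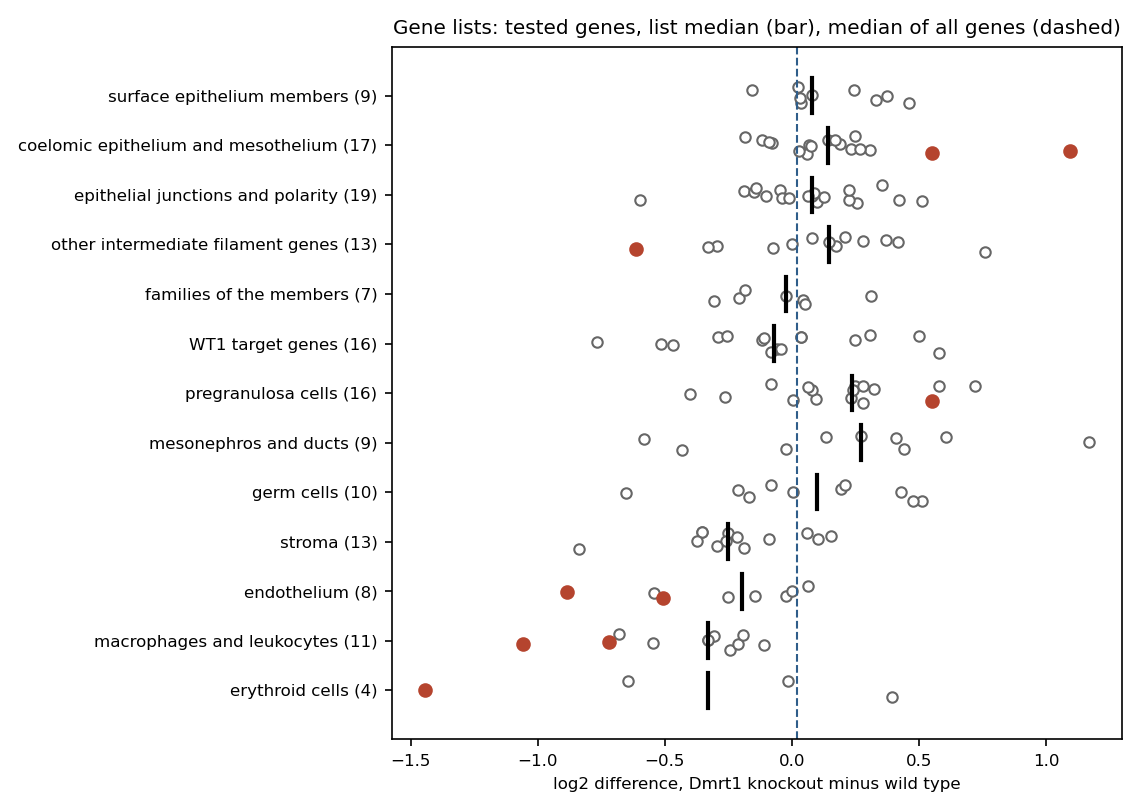
Log2 difference, Dmrt1 knockout minus wild type, of the tested genes of each list, with the number tested in brackets. Filled points are genes with a limma adjusted p under 0.05, black bars are list medians and the dashed line is the median of all genes tested, 0.02. The 9 tested surface epithelium genes lie between -0.16 and 0.46 with 0 called.

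Over the 9 tested genes 8 had a positive difference, where 53.4% of all genes did, and the median was 0.08 log2 units against 0.02 for all genes. The median was 0.15 without knockout replicate 1, and 0.21 when the probe sets of a gene were averaged. Read against these counts, the 9 genes are described and not tested as a group.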

How the data were processed

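Whole ovaries at E15.5 were measured on 6 Affymetrix arrays with biotin-labelled total RNA, per the labels. The authors deposited linear intensities, 1 per probe set and array, made with GCRMA, a background correction and summary by probe base composition, per the submitters' processing notes, and version and settings are not given in the sources used here. GCRMA compresses dim signals, so differences between dim values mean little. The values carry no detection calls, and the number of arrays limits the precision.

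Intensities were taken to log2, 64 control probe sets of 45101 were left out, and a probe set was tested at log2 4 or more on at least 3 arrays. The genotypes were compared in R 4.3.3 by limma 3.58.1 (lmFit, eBayes with trend, 2-sided, Benjamini-Hochberg over all 22040 probe sets, threshold 0.05). Of the probe sets, 34945 name 1 gene, 932 several and 9160 none, and 34741 of the first were found in the RefSeq table of GRCm38.p6. The fit was tested on simulated data. Text names the 10 genes, the 3 genes of each related list with the smallest p (printed for the lists closest to the 10 genes and, elsewhere, for those called) and the 3 genes most like each of 3 of them. Muc16, Lhx2, Tbx18, Cdh3, the dim keratins and relatives, Krt1, Krt10, Krt14, Krt17, Igf1r, Runx1, Foxl2, Wnt4 and the dim markers were named after their values were seen. So was Hbb-y. The genes and lists were chosen with earlier results of these data known. Replicate numbers did not pair the arrays: deviations from group means of same-numbered arrays correlated at -0.17, -0.25 and -0.17. No pair of arrays held identical values.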

Additional observations from a re-analysis of the deposited data

How the results depend on the processing

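The count of 0 called by limma among the surface epithelium genes was the same in all alternatives tried except median centring, which called 3, and 3 of the 9 tested genes had an unadjusted p under 0.05 on the values as deposited. The median difference of these genes, 0.08, was 0.22 with median centring, 0.20 on probe sets of the most specific kind (ending in _at alone) and 0.21 with averaged probe sets, and 0.10 to 0.16 without single arrays. On that kind only 6 genes were tested. The replicate number as a replicate block gave 0 calls too, with a median of 0.08, and ended the calls of Lhx9 (limma adjusted p = 0.0547), Nes (0.0675), Tek (0.136), Ptprc (0.0593) and Mrc1 (0.0524). With the 1455 probe sets called in all as the base, 3282 were called with no filter, 956 with the stricter filter, 342 genes with averaged probe sets (fewer units tested), and 536 to 1399 without single arrays.

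Small differences changed sign, all of them far from passing. Without single arrays Krt8 ran from -0.064 to 0.16, Wt1 from -0.063 to 0.093, Gpm6a from -0.20 to 0.15 and Lrrn3 from -0.32 to 0.0066. Gpm6a was -0.058 with array weights, and Hbb-bh1 of the erythroid list was -0.26 without x_at probe sets, an alternative added after seeing the data, against 0.39. The cause was not tested. With averaged probe sets, 0 genes of the coelomic list were called, and the counts of calls in the related lists ranged from 0 to 3 over all alternatives. The limits are the 3 arrays per group, the dim Msln probe set, and probe sets of Krt8 and Upk1b that can match other transcripts.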
